A study of Ipomoea batatas with 12 samples.

Results

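The mature tuberous root (MR) of wild-type sweetpotato was set against the developing tuberous root (DR), gene by gene. Members were the 27110 genes, of 45142 deposited, whose mean FPKM (fragments scaled to gene length in kilobases and to the number of mapped reads) over the 2 libraries was at least 0.5. Plants of cultivar Taizhong 6 were grown in a greenhouse, each wild-type (WT) sample pooled the roots of several plants, and 1 library was deposited per stage. The labels put DR at 1 month and MR at 4 months, whereas the series description places them at 60 and 120 days after planting. The direction of each difference was looked for in roots labelled as overexpressing the MADS-box gene MBP3 (MBP3-OE), with 3 libraries at 1 month and 3 at 4 months, numbered 2, 3 and 8. No source used here says whether these numbers are lines or plants, or which promoter drives the transgene, so the p-values measure only the spread between these libraries.

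The tuberous root of sweetpotato is a storage organ that forms when a fibrous root thickens, its cambia divide, and parenchyma cells fill with starch granules and storage protein. Sporamin, a vacuolar storage protein related to Kunitz-type trypsin inhibitors, is its main soluble protein, and ADP-glucose pyrophosphorylase makes the glucose donor from which starch is built. Early thickening is accompanied by loosening of cell walls, in which expansins, xyloglucan endotransglucosylases and pectin enzymes take part, whereas lignin and suberin stiffen and seal walls.

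A single library per WT stage allows no test, so WT differences are given as the ratio of FPKM + 1 and described as higher or lower in MR. Past 2-fold, 2669 members (9.85%) were higher and 4958 (18.3%) were lower in MR, and 19483 lay within 2-fold. Past 10-fold these were 157 and 301 members. The median log2 fold of all members was −0.18, with quartiles at −0.77 and 0.36. The share of sporamin in all counts was 0.289% in DR (0.287 to 0.290, 95% Wilson interval) but 11.9% in MR (11.85 to 11.87), and FPKM is a share of each library. Rescaled by median ratios, which moved MR against DR by 0.23 on the log2 scale, 3453 members were higher and 3969 lower. With counts scaled by TMM (trimmed mean of M-values) and depth there were 4291 and 4254, and rescaled without sporamin 3323 and 4260. The balance of higher and lower members thus depended on the scaling, and the −0.18 of all members stands as the background for each list's median.

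MBP3 is annotated as 2 neighbouring genes on linkage group (LG) 1, g4107 and g4109, which may share reads. The level of g4107, in FPKM, was 23.2 in DR and 83.2 in MR, against 29.7, 58.3 and 51.3 in MBP3-OE at 1 month and 55.8, 67.5 and 121 at 4 months. That of g4109 was 10.5 in DR and 40.9 in MR, against 16.6, 29.7 and 26.3 at 1 month and 27.9, 35.8 and 65.9 at 4 months. At 4 months both thus overlapped between genotypes, and MR is here the library labelled so. Library totals were 55506002 counts in DR and 47956219 in MR, and 39424503 to 58486728 in MBP3-OE. A deposited count may not be a single read (123 genes had a count of 1 in DR and 502 a count of 4), which was not tested. Intervals and floors from counts are therefore approximate and cover counting error only.

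**Figure D1:**
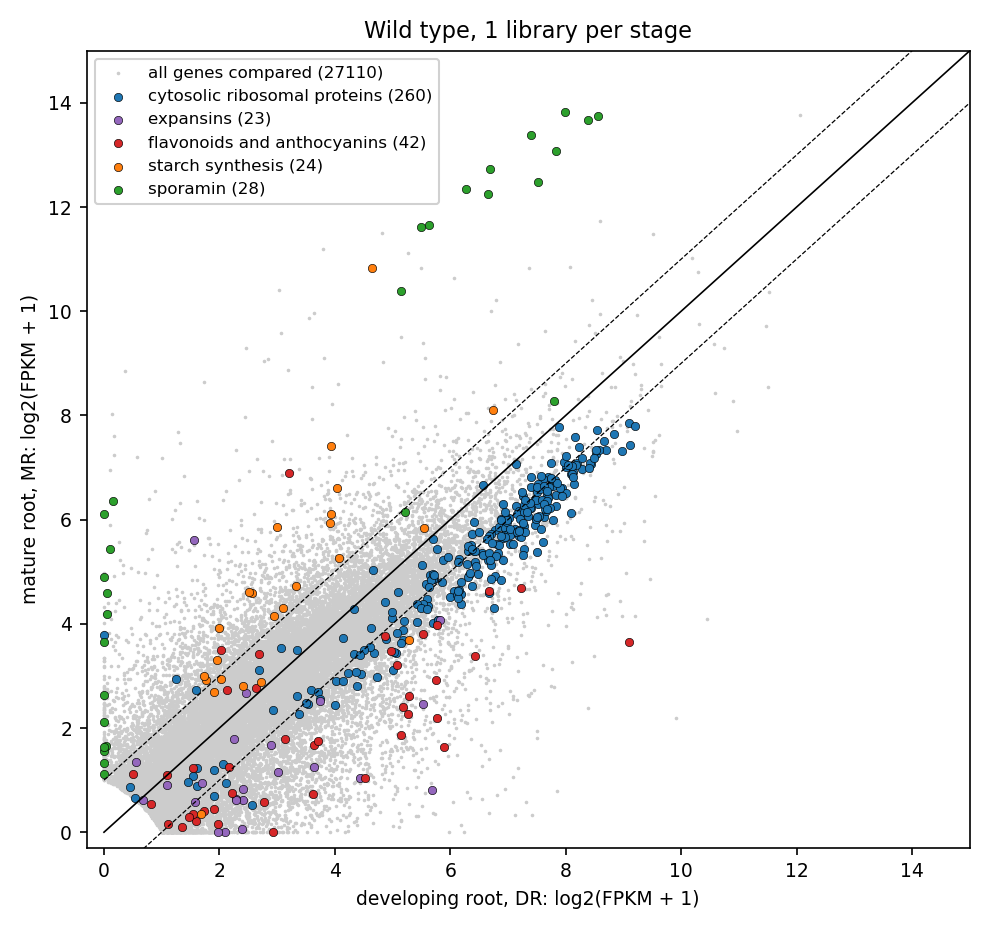
Each point is a gene with its level in DR on the x axis and in MR on the y axis, both as log2(FPKM + 1) in 1 library each, with 5 gene lists coloured. The solid line marks equal levels and the dashed lines a 2-fold difference. Sporamin genes stand far above the line and most cytosolic ribosomal protein genes lie below it, 176 of 260 of them past 2-fold on this scale and 95 with TMM.

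In MBP3-OE, edgeR's quasi-likelihood test set the counts of 4 months against those of 1 month over 28065 genes. A gene was called where its adjusted p (Benjamini-Hochberg) was under 0.05 and its change at least 2-fold. There 1296 genes rose (4.62%) and 1298 fell (4.62%), of which 1254 (4.72%) and 1239 (4.67%) were among the 26556 members tested. Of the 2587 members higher in MR and tested, 701 (27.1%) rose in MBP3-OE, 13 fell and 2247 (86.9%) had a positive fold, against 49.2% of all members tested. Of the 4910 lower in MR and tested, 918 (18.7%) fell, 9 rose and 4513 (91.9%) had a negative fold, against 50.8% of all. All 3 libraries of 4 months lay above all 3 of 1 month for 1162 (44.9%) of the higher members, with 10.8% of all members as background. They lay below them for 3345 (68.1%) of the lower members, with 31.8% as background. Of the 19059 members within 2-fold in WT and tested, 852 (4.47%) were called in MBP3-OE. The MBP3-OE calls rest on few libraries: without library 8 of 4 months no gene rose and 4 fell (edgeR, with 3681 up and 3907 down at an unadjusted p under 0.05), and without library 8 of 1 month 22 rose and 39 fell. Without library 3 of 1 month there were 83 and 114, and without library 2 of 1 month or of 4 months 435 and 486, or 410 and 513. A call below therefore means all 6 libraries, and the values of each library are given for many of the genes named, though not for all.

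**Figure D2:**
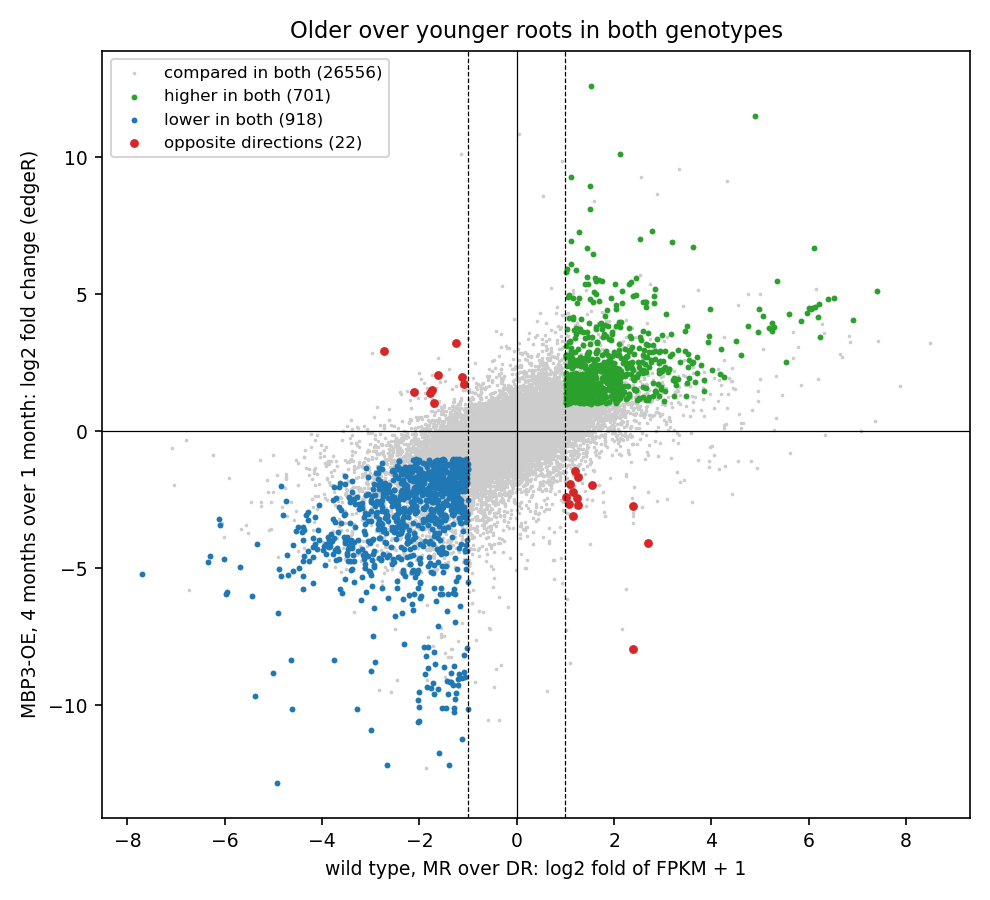
Each point is 1 of 26556 genes, with the WT log2 fold of FPKM + 1 (MR over DR) on the x axis and the edgeR log2 fold change of MBP3-OE (4 months over 1 month) on the y axis. Coloured points are past 2-fold in WT and called in MBP3-OE, 701 higher in both, 918 lower in both and 22 in opposite directions.

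The MBP3-OE libraries differed in how closely they resembled MR. Across members, Pearson's r of log2(FPKM + 1) with MR was 0.890, 0.925 and 0.922 for libraries 2, 3 and 8 of 4 months, and with DR 0.711, 0.805 and 0.755. For the libraries of 1 month r with MR was 0.886, 0.839 and 0.834, so that library 2 was about as close to MR at 1 month as at 4 months. These values are a description across genes that share depth and scale. At 4 months library 8 exceeded all 3 libraries of 1 month in 1796 of the 2669 members higher in MR, library 3 in 1607 and library 2 in 1542, with 22.0%, 25.4% and 20.5% of all members as background. Library 2 stood below all of them in the largest number of lower members, 4353, but also in 56.6% of all members.

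Sporamin had the highest median of the 45 gene lists. Of the 28 sporamin genes compared, 26 were past 2-fold higher in MR and none lower, with a median log2 fold of 5.07. Only 19 of the 28 were above 0 in both libraries, and 17 of these were higher. The others passed the 0.5 FPKM minimum through MR alone, which partly set these values. Over all 42 deposited sporamin genes, without that minimum, 26 were higher, none was lower and the median was 1.87. In MBP3-OE 19 of the 25 tested rose, all of them also higher in MR, and none fell. Summed over the genes, sporamin reached 2203 FPKM in DR and 91498 FPKM in MR. In MBP3-OE the sum was 9888, 13340 and 3226 FPKM in libraries 2, 3 and 8 at 1 month and 136155, 65834 and 128346 FPKM at 4 months. Each of the 3 older libraries thus lay well above each of the 3 younger ones, as MR lay above DR.

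The most abundant of them in MR was g46653, with 251 FPKM in DR and 14469 FPKM in MR, a 57.3-fold difference. It measured 1481, 1817 and 456 FPKM in MBP3-OE at 1 month and 19850, 9259 and 18115 FPKM at 4 months, a rise of 4.01 on the log2 scale (SE 0.72, adjusted p = 0.0287, edgeR). In fibrous roots (FR, the 20-day WT library) g46653 stood at 1.28 FPKM, so its level was ordered FR, DR, MR. Gene g46666, described as sporamin A, went from 333 FPKM in DR to 13079 FPKM in MR, and g46662, described as sporamin B, from 169 to 10616 FPKM. The pattern of both in MBP3-OE was that of g46653, with 1558, 1502 and 431 FPKM against 16841, 7309 and 13959 FPKM for g46666.

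Most sporamin genes lie together on LG 11. Between 38788326 and 39033323, 23 of 28 annotated genes are described as sporamin, 20 of these were compared, and 19 were higher in MR. The exception in that stretch is g46675, described as sporamin A, with 221 FPKM in DR and 308 FPKM in MR, a log2 fold of 0.48. In MBP3-OE g46675 had no call (adjusted p = 0.993, edgeR). A gene in the same stretch, g46674, is described as a LINE-type retrotransposon, a mobile element that copies itself through RNA. It had 12.8 FPKM in DR and 2339 FPKM in MR, and in MBP3-OE 102, 164 and 49.6 FPKM at 1 month and 3967, 1402 and 3020 FPKM at 4 months (adjusted p = 0.0223, edgeR). The 28 genes described as LINE-type retrotransposons held only 2 past 2-fold higher in MR, and whether g46674 takes reads from its sporamin neighbours was not tested. Near-identical copies share reads, so values of single sporamin genes are uncertain and their sum less so.

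Proteinase inhibitors, which block the digestion of protein by pests and by the plant's own proteases, split by family. Of the 45 genes, 14 were higher and 17 lower in MR, and in MBP3-OE 3 rose and 6 fell. The families, told apart after their values were seen, differed in direction. Of 19 genes described as Kunitz inhibitors 11 were lower and 1 higher in MR, whereas of 21 described as proteinase inhibitors of other kinds (mostly I13) 13 were higher and 2 lower. Gene g16356, a Kunitz-type trypsin inhibitor, had 1904 FPKM in DR and 308 FPKM in MR. In MBP3-OE g16356 measured 3257, 2134 and 2084 FPKM at 1 month and 39.7, 59.2 and 164 FPKM at 4 months and fell by 4.51 on the log2 scale (SE 0.65, adjusted p = 0.0221, edgeR).

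Much of the other family lies in 2 short runs of neighbours on LG 2. All 4 inhibitor genes between 30839514 and 30859241 and all 5 between 31109976 and 31148351 were higher in MR, against 9.85% of all members. The ends of these runs were chosen after the values were seen, which partly set those counts. Gene g8413 in the second run had 27.3 FPKM in DR and 2908 FPKM in MR. It measured 731, 120.3 and 26 FPKM at 1 month and 285, 2065 and 2628 FPKM at 4 months in MBP3-OE, so that the ages overlapped and no change was called (log2 fold change 2.72, SE 1.29, adjusted p = 0.198, edgeR). Gene g8370 in the first run went from 7.35 to 763 FPKM in WT. Its MBP3-OE values were 27.4, 33.4 and 7.66 FPKM against 76.3, 741 and 825 FPKM, a called rise (adjusted p = 0.0349, edgeR). In both genes library 2 of 4 months was the lowest of its age.

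Genes for starch synthesis were mostly higher in MR. Of 24 compared, 17 were past 2-fold higher and 2 lower, with a median log2 fold of 1.31. In MBP3-OE 11 rose and none fell, and all 11 were among those higher in MR. Their summed level reached 356 FPKM in DR and 2823 FPKM in MR, and in MBP3-OE 555, 1182 and 643 FPKM at 1 month and 6096, 2862 and 3125 FPKM at 4 months. The lowest older library was therefore more than 2-fold above the highest younger one.

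Much of that sum came from g59752, annotated as IbAGPb1A, the beta subunit of ADP-glucose pyrophosphorylase. It had 24.1 FPKM in DR and 1824 FPKM in MR, a 72.7-fold difference. In MBP3-OE g59752 measured 65.0, 325 and 97.6 FPKM at 1 month and 4195, 1104 and 1221 FPKM at 4 months, a rise of 4.17 on the log2 scale (SE 0.92, adjusted p = 0.0397, edgeR). The alpha subunit genes IbAGPa1 (g30656) and IbAGPa2 (g54359) were 14.2 and 9.04 FPKM in DR and 68.4 and 25.5 FPKM in MR, and both rose in MBP3-OE. Granule-bound starch synthase I (g39231), which makes amylose, had 106 FPKM in DR and 273 FPKM in MR, and 119.7, 432 and 198 FPKM at 1 month and 1109, 1102 and 1188 FPKM at 4 months in MBP3-OE. Starch branching enzyme I (g51137) stood at 14.3 FPKM in DR and 170.0 FPKM in MR, and starch branching enzyme II (g25144) at 14.1 and 60.3 FPKM. Both branching enzymes rose in MBP3-OE, g51137 by 1.29 (SE 0.25) and g25144 by 1.82 on the log2 scale. The 2 genes lower in MR were g34438, a glucose-6-phosphate/phosphate translocator, and g55556, described as an inactive small subunit of ADP-glucose pyrophosphorylase.

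Genes for starch breakdown were also more often higher than lower in MR, 16 against 6 of 37, with a median log2 fold of 0.80. In MBP3-OE 8 rose and 1 fell. Gene g1272, an alpha-1,4 glucan phosphorylase of the L type, which removes or adds glucose at chain ends, had 6.21 FPKM in DR and 543 FPKM in MR. It measured 33.5, 88.4 and 62.4 FPKM at 1 month and 764, 259.8 and 478.4 FPKM at 4 months in MBP3-OE (adjusted p = 0.0269, edgeR). The beta-amylase g13691, of the enzyme family that releases maltose, had 34.2 FPKM in DR and 726 FPKM in MR. Its ages did not overlap in MBP3-OE, with 241, 369 and 102 FPKM against 686, 494 and 994 FPKM, but it missed the call (adjusted p = 0.0680, edgeR). The plastid-type beta-amylase 1, g42739, had 391 FPKM in DR and 242 FPKM in MR.

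Sucrose genes divided between the directions much as all members did (9.85% higher and 18.3% lower). Of 66 genes for sucrose cleavage and sugar transport 8 were higher and 16 lower in MR, or 11 and 13 with median-ratio scaling, and 2 rose and 8 fell in MBP3-OE. Gene g13783, a sucrose transport protein, had 418 FPKM in DR and 47.3 FPKM in MR, whereas g55074, the most abundant sucrose synthase, which cleaves sucrose for use in sinks, had 124 and 181 FPKM. In MBP3-OE neither g13783 (205, 181 and 271 against 21.6, 110.2 and 56.2 FPKM) nor g55074 (170.4, 362 and 353 against 257, 189 and 175 FPKM) was called. Trehalose genes, of a sugar signal pathway, had none higher and 5 of 17 lower in MR.

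**Figure D3:**
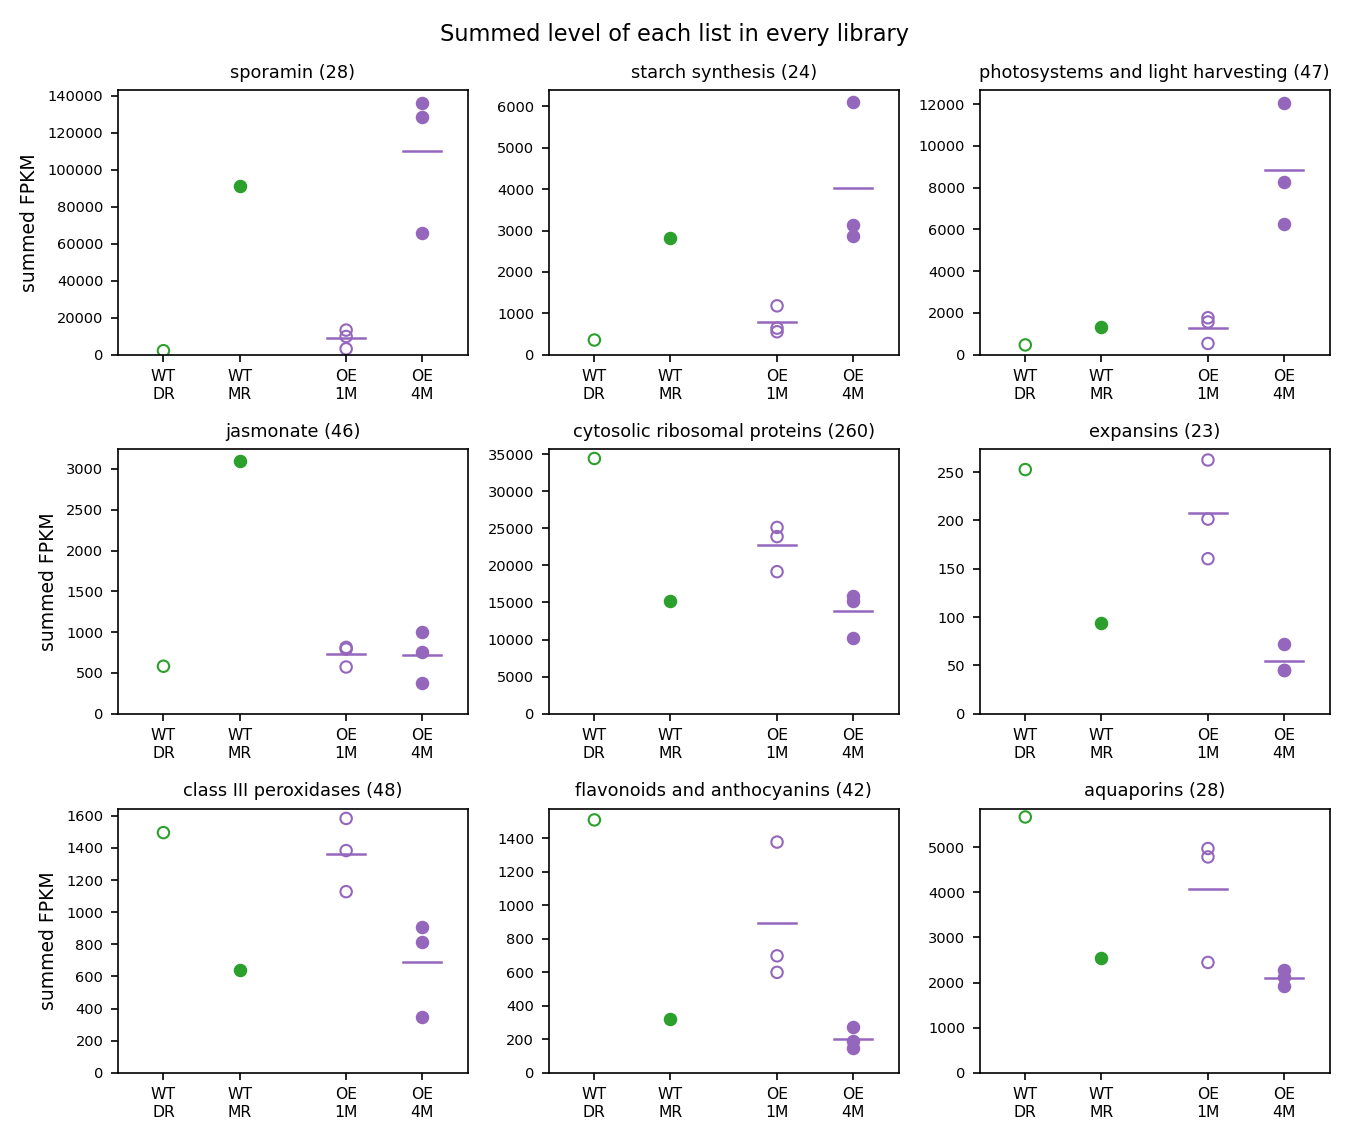
Each panel gives the summed FPKM of 1 gene list (y axis, starting at 0) in every library, with its number of genes in brackets; WT DR and MR have 1 library each, and MBP3-OE (OE) 3 libraries per age with their mean as a bar. Sporamin and starch synthesis separate the ages in both genotypes, whereas the jasmonate sum is high only in MR, at 3101 FPKM.

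Among the largest single differences were genes of lipid breakdown, with unlike values in the genotypes. Phospholipases A1 release fatty acids from membrane lipids. Of 16 genes described as phospholipase A1-II 12 were higher in MR and 1 lower, with a median log2 fold of 5.53, a family chosen after its values were seen. Its genes could pass the 0.5 FPKM minimum through MR alone, and what part this had in that count was not tested. All 6 that lie between 34472849 and 34746214 on LG 11 were higher, in a stretch whose ends were chosen after the values were seen. The top member, g46055, had 0.281 FPKM in DR and 462 FPKM in MR. In MBP3-OE it measured 3.52, 24.5 and 4.20 FPKM at 1 month and 0.908, 22.0 and 210.1 FPKM at 4 months, with only library 8 above the younger roots (log2 fold change 3.21, SE 1.67, adjusted p = 0.234, edgeR).

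The sum of the 16 phospholipase genes shows the same split. It reached 46.1 FPKM in DR and 3131 FPKM in MR, and in MBP3-OE 127, 387 and 162 FPKM at 1 month and 20.9, 73.6 and 862 FPKM at 4 months. Libraries 2 and 3 of 4 months thus stood below all 3 of 1 month, and library 8 above them. None of the 16 was called in MBP3-OE (edgeR, 2 at an unadjusted p under 0.05), and limma called 2 of them lower and DESeq2 none. In the WT library of fibrous roots g46055 had 56.5 FPKM, so that DR was the lowest of the 3 WT stages. Gene g4095, a patatin-like protein of a family of storage organ lipid acyl hydrolases, had 7.19 FPKM in DR, 1353 FPKM in MR and 283 FPKM in FR. Its MBP3-OE values overlapped, with 78.9, 107 and 30.5 FPKM at 1 month and 6.87, 65.2 and 158 FPKM at 4 months.

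Lipoxygenases and allene oxide synthases, which turn free fatty acids into oxylipins, had similar values. Gene g23525, a probable linoleate 9S-lipoxygenase, had 11.2 FPKM in DR and 372 FPKM in MR, and the neighbouring allene oxide synthase 3-like gene g23527 had 15.6 and 386 FPKM. In MBP3-OE g23525 measured 38.1, 78.0 and 29.1 FPKM at 1 month against 6.14, 12 and 27.3 FPKM at 4 months, and g23527 65.8, 29.4 and 34.0 against 6.35, 22.5 and 22.2 FPKM. All older values of both genes lay below all younger ones, the reverse of WT, as they did for 31.8% of all members tested. Neither gene was called (adjusted p = 0.172 and 0.207, edgeR). Gene g34097, a second allene oxide synthase 3-like gene, had 66.3 FPKM in DR and 1591 FPKM in MR, and 323, 198 and 148 against 40.8, 519 and 311 FPKM in MBP3-OE. The list named jasmonate holds these genes with the TIFY repressors. Of its sum of 3101 FPKM in MR, g34097, g23527 and g23525 held 1591, 386 and 372 FPKM, so it does not measure jasmonate synthesis alone. Of its 46 genes 23 were higher and 8 lower in MR (median log2 fold 1.01), but 3 rose and 1 fell in MBP3-OE (median 0.17). The MBP3-OE balance turned with the tool and the libraries, with 1 up and 5 down in limma (median −0.15), 5 and 4 in DESeq2, and a median of −0.22 without library 8 of 4 months and −0.16 with a replicate block.

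The difference of the age effects between genotypes was itself tested with edgeR on all 12 libraries, a lone WT library being assumed to vary as MBP3-OE does. It called 1 gene of 28065 (0.00356%), g24844, whereas 2995 had an unadjusted p under 0.05 and DESeq2 called 665. For g23525, g23527, g34097 and g46055 a difference between the genotypes was therefore not shown by the main test. It cannot decide the question, since on simulated counts it recovered 0% of genes changed by log2 folds of 1, 2 and 3.

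**Figure D4:**
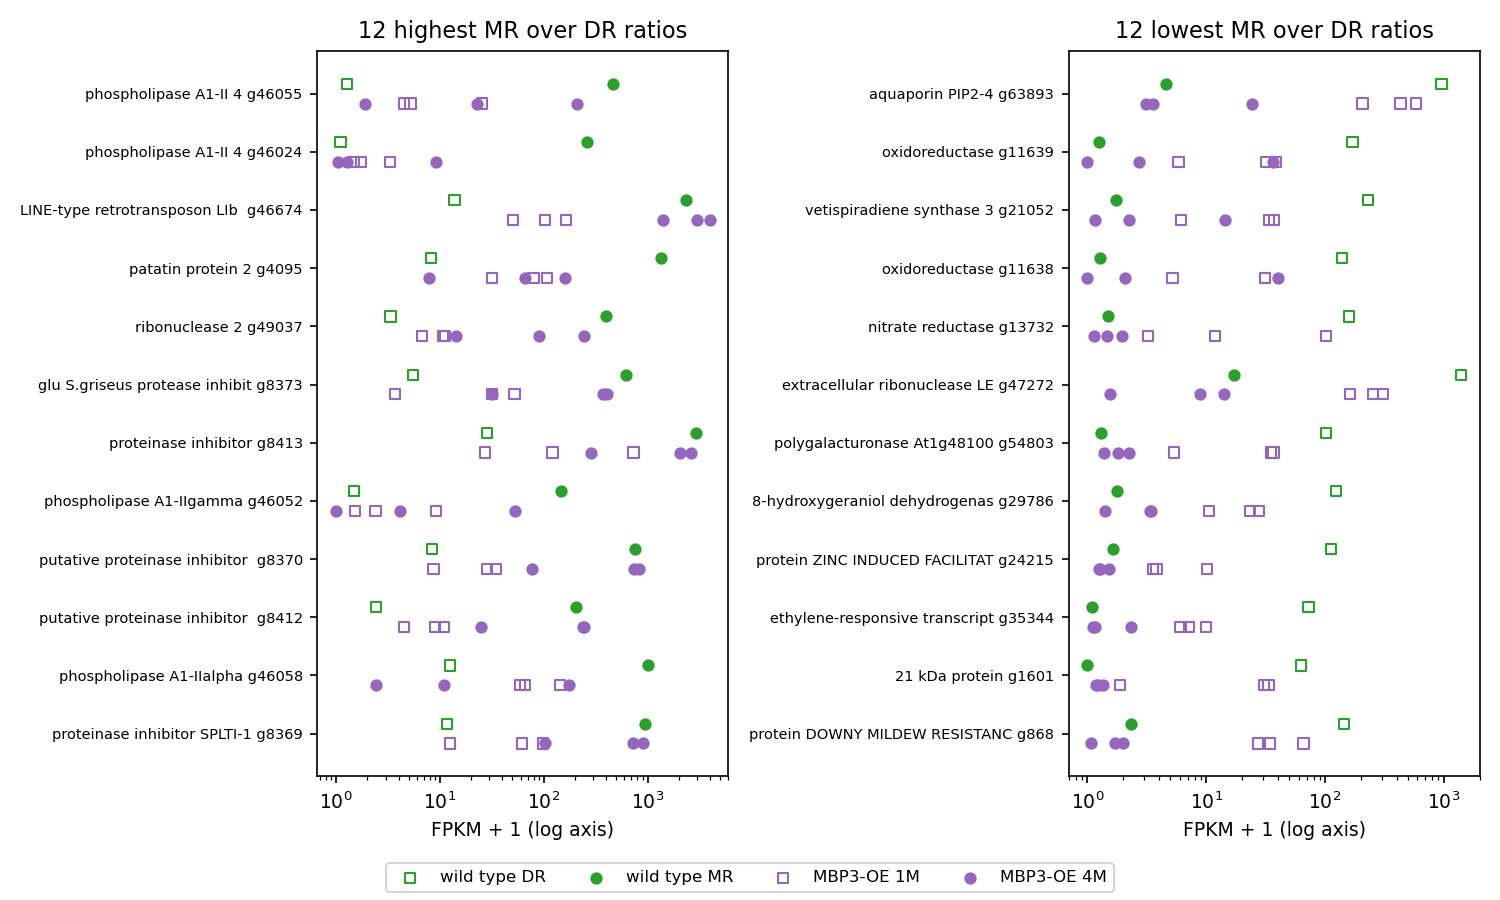
FPKM + 1 on a log x axis for the 12 highest and the 12 lowest WT ratios of MR over DR among named genes (rows), with WT in green and MBP3-OE in purple, open squares for the younger and filled circles for the older roots. In the left panel the purple circles of the phospholipase genes mix with the squares, whereas for aquaporin g63893 every older library lies below every younger one.

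Expansins, which loosen walls without cutting them, were mostly lower in MR. Of 23 genes 15 were lower and 1 higher, with a median log2 fold of −1.65, and 4 of 22 tested fell in MBP3-OE. Gene g3926 (IbEXPA3) had 50.6 FPKM in DR and 0.755 FPKM in MR, a 29.4-fold difference. It measured 15.2, 21.0 and 31.8 FPKM at 1 month and 0.280, 0.642 and 0.716 FPKM at 4 months in MBP3-OE and fell by 5.03 on the log2 scale (SE 0.44, adjusted p = 0.0126, edgeR). Gene g59839 (IbEXLA2) had 55.6 and 15.8 FPKM in WT and 76.9, 92.0 and 86 against 10.2, 17.2 and 15.4 FPKM in MBP3-OE, likewise a called fall. The single expansin higher in MR was g25447 (IbEXPA16), at 1.95 FPKM in DR and 48.1 FPKM in MR. In MBP3-OE g25447 went from 10.5, 6.12 and 9.2 FPKM to 5.65, 1.09 and 4.03 FPKM, without a call (adjusted p = 0.374, edgeR).

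Other wall enzymes were also lower in larger shares than the 18.3% of all members. Xyloglucan endotransglucosylases, which cut and rejoin the tethers between cellulose fibrils, had 14 of 25 genes lower and 5 higher in MR, and pectin enzymes 27 of 81 lower and 3 higher. The polygalacturonase g54803, which cuts pectin, had 101 FPKM in DR and 0.289 FPKM in MR. In MBP3-OE it was 4.31, 34.3 and 35.8 FPKM at 1 month and 0.385, 0.802 and 1.26 FPKM at 4 months (log2 fold change −4.57, SE 0.85, adjusted p = 0.0296, edgeR). In the other direction, xyloglucan endotransglucosylase g30920 had 13.5 FPKM in DR and 89.5 FPKM in MR and g54663 had 5.37 and 55.5 FPKM, with no call in MBP3-OE. Cellulose synthesis had 13 of 32 genes lower and 4 higher (median −0.44, but 0.20 for its 19 genes averaging 5 FPKM or more). Among its abundant catalytic subunits, g19658 had 60.6 and 53.0 FPKM in WT and g60058, cellulose synthase A catalytic subunit 2, had 33.4 and 68.6 FPKM.

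Lists of wall stiffening, sealing and phenolics held larger shares of lower genes than the 18.3% of all members. Lignin and phenylpropanoid genes had 57 of 145 lower and 11 higher (median −0.60), class III peroxidases, which couple lignin units, 31 of 48 lower and 2 higher (median −1.45), and suberin and Casparian strip genes 30 of 60 lower and 4 higher (median −1.0). In MBP3-OE 15 of 142, 7 of 47 and 13 of 59 tested fell and 5, none and 1 rose, against 4.67% and 4.72% of all members tested. Cinnamyl alcohol dehydrogenase g29790, the last step towards lignin units, had 424 FPKM in DR and 22.7 FPKM in MR, and 137, 122 and 178 against 2.59, 31.7 and 89.0 FPKM in MBP3-OE (adjusted p = 0.325, edgeR). The anionic peroxidase g34467 had 412 and 58.6 FPKM in WT and 263, 263 and 321 against 10.2, 87.5 and 47.9 FPKM in MBP3-OE (adjusted p = 0.0656, edgeR). For both genes the older libraries of MBP3-OE lay below the younger ones, as for 31.8% of all members tested, without a call. The peroxidase g59329 was an exception, at 41.3 FPKM in DR and 239 FPKM in MR.

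Flavonoid and anthocyanin genes, of the pathway to red and purple pigments and tannins, had 31 of 42 lower and 2 higher in MR, with a median log2 fold of −1.60, and 9 fell and 1 rose in MBP3-OE. Their sum reached 1510 FPKM in DR and 323 FPKM in MR, and 599.5, 1378 and 698 FPKM against 148, 275 and 190.5 FPKM in MBP3-OE. A leucoanthocyanidin dioxygenase-like gene, g58862, had 545 FPKM in DR and 11.6 FPKM in MR. It measured 115, 432 and 80.9 FPKM at 1 month and 0.764, 2.20 and 4.66 FPKM at 4 months in MBP3-OE and fell by 6.03 on the log2 scale (SE 0.98, adjusted p = 0.0255, edgeR). Against the list, the flavonoid 3'-monooxygenase-like gene g39384 was higher in MR, at 118 against 8.18 FPKM, and rose in MBP3-OE from 8.89, 9.53 and 13 FPKM to 36.8, 87.4 and 44.0 FPKM. Phytoene synthase (g29616), the entry to carotenoids, had 17.2 FPKM in DR and 87.5 FPKM in MR and rose in MBP3-OE by 1.65 on the log2 scale (SE 0.32, adjusted p = 0.0313, edgeR).

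Water and nitrogen uptake genes were lower in MR in larger shares than the 18.3% of all members. Aquaporins, the water channels of membranes, had 17 of 28 lower and 4 higher (median −1.11), and 4 fell in MBP3-OE. Aquaporin PIP2-4 (g63893) had 956 FPKM in DR and 3.59 FPKM in MR, a 208-fold difference. It measured 431, 206 and 579.9 FPKM at 1 month and 2.54, 23.5 and 2.10 FPKM at 4 months in MBP3-OE and fell by 5.21 on the log2 scale (SE 1.06, adjusted p = 0.0348, edgeR). Another plasma membrane aquaporin, g19675, had 388 FPKM in DR and 981 FPKM in MR, so the family held genes in both directions.

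Nitrogen genes had 18 of 36 lower and 3 higher (median −1.06). Nitrate reductase g13732, which makes nitrite from nitrate, had 158 FPKM in DR and 0.486 FPKM in MR. In MBP3-OE it was spread at 1 month, with 2.23, 101 and 10.8 FPKM, and low throughout at 4 months, with 0.940, 0.453 and 0.130 FPKM (adjusted p = 0.0595, edgeR). Phosphate genes had 8 of 42 in each direction. Purple acid phosphatase 1 (g38857), which frees phosphate from organic compounds, stood at 164 FPKM in DR and 1828 FPKM in MR, whereas the phosphate transporter 1-4-like gene g8296 stood at 133 and 16.2 FPKM.

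Hormone lists other than jasmonate held genes in both directions, and the sign of the auxin (−0.16), the carotenoid and abscisic acid (−0.11) and the gibberellin and brassinosteroid medians (−0.011) turned with median-ratio or TMM scaling. Of 123 auxin genes 22 were higher and 38 lower in MR, of 53 cytokinin genes 5 and 11, of 33 gibberellin and brassinosteroid genes 6 and 10, and of 36 ethylene genes 2 and 7. Among all members 9.85% were higher and 18.3% lower, shares to which the cytokinin counts and the ethylene falls were close. The 1-aminocyclopropane-1-carboxylate oxidase g59369, the last enzyme of ethylene synthesis, had 118 FPKM in DR and 4.58 FPKM in MR. It measured 153, 314 and 159 FPKM at 1 month and 12.9, 12 and 13.2 FPKM at 4 months in MBP3-OE and fell by 3.68 on the log2 scale (SE 0.35, adjusted p = 0.0131, edgeR). All 3 older libraries thus lay far below all 3 younger ones.

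Transcription factors of the AP2/ERF and WRKY families were lower in larger shares than the 18.3% of all members. Of 95 AP2/ERF genes 40 were lower and 13 higher (median −0.75), of 59 WRKY genes 28 and 4 (median −0.96), and of 59 NAC genes 20 and 3 (median −0.55). The most abundant AP2/ERF gene, the RAP2-12-like g60949, related to sensors of low oxygen in Arabidopsis, had 727 FPKM in DR and 156 FPKM in MR. In MBP3-OE it fell from 582, 678 and 398 FPKM to 129.8, 185 and 151 FPKM (log2 fold change −1.52, SE 0.29, adjusted p = 0.0307, edgeR). In MBP3-OE 14 AP2/ERF genes fell and 5 rose of 93 tested, and 2 WRKY genes fell and 2 rose of 58, against 4.62% of all genes in each direction. The WRKY 7-like gene g1093 had 87.5 FPKM in DR and 20.5 FPKM in MR, and 58, 33.3 and 75.8 against 23.9, 36.2 and 35 FPKM in MBP3-OE (adjusted p = 0.327, edgeR).

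Among the other families, MYB genes had 30 of 102 lower and 11 higher, bHLH genes 28 of 106 and 12, and homeobox genes 28 of 94 and 13, which became 23 and 20 with median-ratio scaling. Of all members 18.3% were lower and 9.85% higher, and the counts of higher MYB and bHLH genes were close to the latter share. In MBP3-OE 12 homeobox genes rose and 5 fell of 94 tested, against 4.72% and 4.67% of all members tested, so the falls were close to that share. The HD-Zip gene g29859 (ATHB-6-like) had 553 FPKM in DR and 174 FPKM in MR, but 332, 251 and 227 against 237, 266 and 252 FPKM in MBP3-OE, where the ages overlapped. The bHLH25-like gene g1002 had 6.26 FPKM in DR and 113 FPKM in MR, and 34.8, 13.8 and 16.1 against 6.44, 82.3 and 54.1 FPKM in MBP3-OE. Of 28 MADS-box genes, the family of MBP3, 4 were higher and 2 lower in MR, and none of 26 was called in MBP3-OE (edgeR, 5 at an unadjusted p under 0.05), where DESeq2 called 1. The AGL21 gene g1670 had 2.90 FPKM in DR and 19.6 FPKM in MR. In MBP3-OE g1670 stood at 13.1, 24.8 and 17.4 FPKM at 1 month and 14.8, 19.1 and 24.5 FPKM at 4 months.

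Many translation genes were lower in MR, in a number that depended on the scaling. Of 260 cytosolic ribosomal protein genes 176 were past 2-fold lower in MR and 3 higher, with a median log2 fold of −1.18. With median-ratio scaling 115 were lower (median −0.95) and with TMM 95 (median −0.89). Their sum reached 34409 FPKM in DR and 15165 FPKM in MR. In MBP3-OE it was 19151, 25116 and 23878 FPKM at 1 month and 10216, 15242 and 15927 FPKM at 4 months, so the ages did not overlap. In FPKM, a share of each library, all older libraries also lay below all younger ones for 31.8% of all members tested. None of the 259 ribosomal protein genes tested was called by edgeR (median −0.41, 84 at an unadjusted p under 0.05), whereas DESeq2 called 2 higher and 7 lower and limma 42 lower. For L7a (g24568), the WT levels were 553 and 171 FPKM and those of MBP3-OE 271, 373 and 297 against 113, 173 and 183 FPKM, a log2 fold change of −0.68 (SE 0.24, adjusted p = 0.113, edgeR). In bulk roots, less RNA per cell and fewer cells of a type cannot be told apart. Plastid ribosomal proteins, a family chosen after its values were seen, were higher in MR, with 32 of 47 past 2-fold higher in MR, none lower and a median of 1.37, and 6 rose and 1 fell in MBP3-OE.

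Of 84 cell cycle and histone genes 12 were higher, 6 lower and 66 within 2-fold, where 71.9% of all members lay, and tubulins and actins had 5 of 25 in each direction. Linker histone H1 genes, which compact chromatin, stood out among them. The histone H1 gene g405 had 35.6 FPKM in DR and 249 FPKM in MR, and 146, 79.0 and 67.8 against 945, 296 and 454 FPKM in MBP3-OE, a rise of 2.90 on the log2 scale (SE 0.61, adjusted p = 0.0363, edgeR). A second one, g9616, had 45.3 FPKM in DR and 219.9 FPKM in MR and rose in MBP3-OE by 1.16 on the log2 scale.

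Pathogenesis-related and dehydrin genes were lower in larger shares than the 18.3% of all members, whereas heat stress genes divided more evenly. Pathogenesis-related proteins had 63 of 126 lower and 15 higher (median −0.98), and 23 fell and 5 rose in MBP3-OE. The STH-2-like gene g8243 had 277 FPKM in DR and 8.64 FPKM in MR, and 667, 130.2 and 179 against 1.14, 3.54 and 15.8 FPKM in MBP3-OE (adjusted p = 0.0418, edgeR). Of 6 late embryogenesis abundant and dehydrin genes, which protect cells against drying, 5 were lower. Dehydrin HIRD11 (g58752) had 370.4 FPKM in DR and 16.6 FPKM in MR, and 379.7, 381 and 505 against 11.6, 63.9 and 19.1 FPKM in MBP3-OE, where it fell by 3.48 on the log2 scale (SE 0.59, adjusted p = 0.0263, edgeR). Calmodulin g42874, a calcium sensor, had 276 FPKM in DR and 20.1 FPKM in MR and fell by 2.42 on the log2 scale in MBP3-OE (SE 0.45, adjusted p = 0.0302, edgeR). Heat stress genes had 15 of 93 higher and 21 lower, and 17 in each direction with median-ratio scaling.

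Markers of vascular cell types were lower in MR or within 2-fold. Xylem markers had 11 of 16 lower and none higher in MR (median −1.62), phloem markers 15 of 44 lower and none higher (median −0.84), and cambium markers 2 of 9 lower and none higher, or 1 in each direction with median-ratio scaling. Among all members 18.3% were lower, a share to which the cambium count was close. In MBP3-OE 6 xylem markers fell and 1 rose of 15 tested, and 5 phloem markers fell and none rose of 43. The xylem sum reached 68.0 FPKM in DR and 13.8 FPKM in MR, and ran from 36.9 to 86.5 FPKM at 1 month and from 18.5 to 30.1 FPKM at 4 months in MBP3-OE. The phloem sum reached 215 and 55.5 FPKM in WT, and ran from 100.2 to 182 and from 45.0 to 89.1 FPKM in MBP3-OE. Laccase-4 (g24398), of lignifying xylem, had 11.4 FPKM in DR and 0.183 FPKM in MR, and 5.51, 16.3 and 10.8 against 0.151, 1.11 and 0.128 FPKM in MBP3-OE (adjusted p = 0.0349, edgeR). WUSCHEL-related homeobox 4 (g38697), which keeps cambium cells dividing, had 16 FPKM in DR and 8.28 FPKM in MR. Of 8 genes described as root hair genes none was past 2-fold. Sporamin, the marker of storage parenchyma, was higher where many xylem and phloem markers were lower, and what part the makeup of the tissue has in the other lists was not tested.

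Photosystem and light-harvesting genes, which mark green plastids, had 25 of 47 higher in MR and 1 lower (median 1.18), against 9.85% and 18.3% of all members. In MBP3-OE, where 4.72% of all members tested rose and 4.67% fell, 26 of these genes rose and 1 fell (median 2.90). Their sum reached 471 FPKM in DR and 1336 FPKM in MR, and 1773, 541 and 1568 FPKM at 1 month and 6248, 8251 and 12068 FPKM at 4 months in MBP3-OE. MR thus lay within the range of the younger MBP3-OE roots. An oxygen-evolving enhancer protein 1 gene, g29965, of photosystem II, had 5.28 FPKM in DR and 142 FPKM in MR, and 78.7, 12 and 49.5 against 252, 352 and 510.2 FPKM in MBP3-OE.

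**Figure D5:**
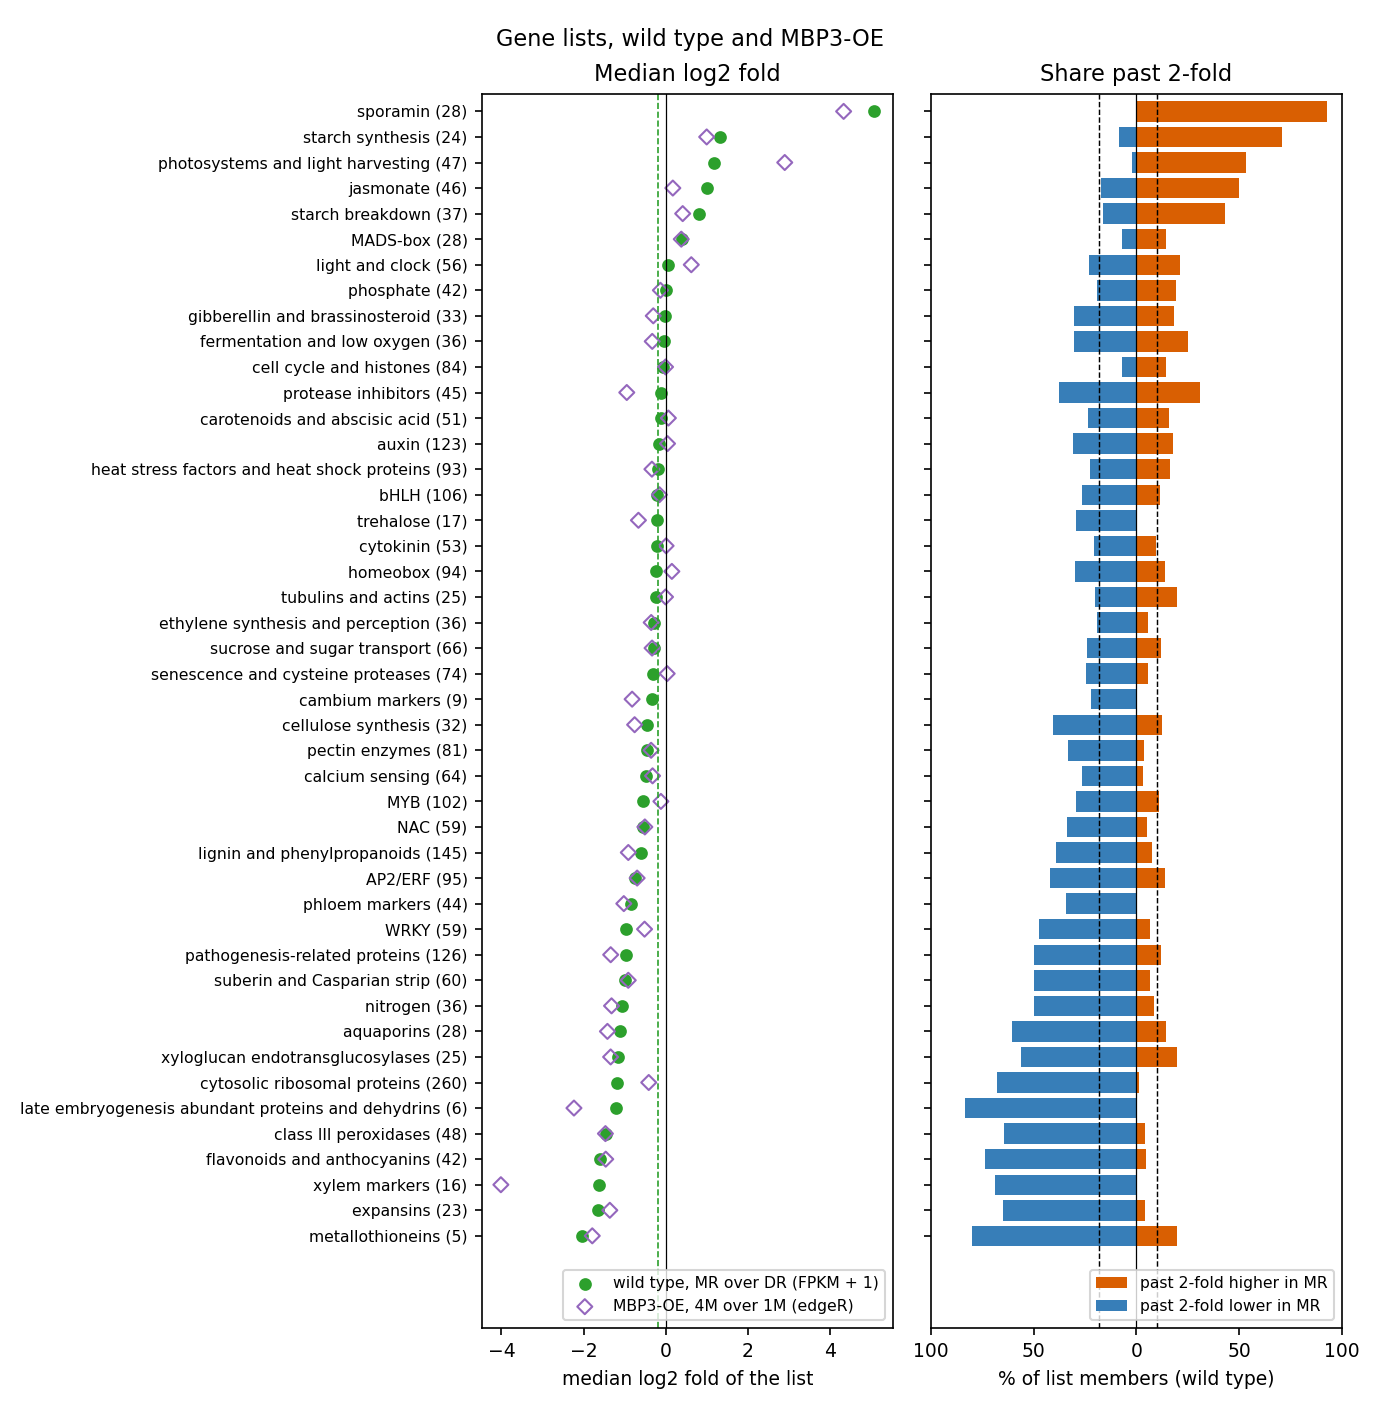
Left, median log2 fold of each of 45 gene lists (rows, with the number of genes) in WT (MR over DR, FPKM + 1) and in MBP3-OE (4 months over 1 month, edgeR); the dashed line is the WT median of all members, −0.18. Right, the share of each list past 2-fold higher or lower in WT, with dashed lines at the shares of all members (9.85% and 18.3%). Sporamin and starch synthesis top the order, and flavonoid genes, xylem markers, expansins and metallothioneins end it.

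The most abundant transcripts differed between the stages. In DR a type 1 metallothionein-like gene, g48449, which encodes a small protein that binds metals, led with 4291 FPKM, and no gene was above 10000 FPKM. In MR 5 genes were above 10000 FPKM, 4 sporamin genes and g48449 itself at 13996 FPKM. In MBP3-OE g48449 measured 7224, 4969 and 4575 FPKM at 1 month and 11949, 11657 and 18055 FPKM at 4 months (adjusted p = 0.0595, edgeR). The other 4 metallothioneins were lower in MR, among them the type 2 gene g4909, at 781 FPKM in DR and 197 FPKM in MR, which fell in MBP3-OE.

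The other leading genes of DR were lower in MR. GDP-L-galactose phosphorylase (g42652), of ascorbate synthesis, had 2936 FPKM in DR against 1314 FPKM in MR. The proline-rich protein gene g15562, described as DC2.15-like, had 2895 and 375 FPKM, and its neighbour on LG 4 g15567 had 2012 and 208 FPKM. In MBP3-OE g15562 fell from 1610, 2781 and 2969 FPKM to 359.6, 355 and 217 FPKM (log2 fold change −2.63, SE 0.36, adjusted p = 0.0212, edgeR). Gene g42333, which has no description, had 2820 and 837 FPKM in WT and fell in MBP3-OE from 5925, 2275 and 3135 FPKM to 162, 279 and 346 FPKM.

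Several genes with the lowest MR over DR ratios had wide spreads in MBP3-OE. The oxidoreductase genes g11638 and g11639 lie beside each other on LG 3 and had 139 and 169 FPKM in DR and 0.263 and 0.255 FPKM in MR. In MBP3-OE g11639 measured 4.83, 37.8 and 30.9 FPKM at 1 month and 0, 1.73 and 35.3 FPKM at 4 months, so that library 8 kept the level of the younger roots (adjusted p = 0.830, edgeR). Vetispiradiene synthase 3 (g21052), of the family that makes sesquiterpene defence compounds, showed a like spread, with 229 and 0.732 FPKM in WT and 5.11, 36.0 and 32.8 against 0.149, 1.23 and 13.4 FPKM in MBP3-OE.

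Others were lower in MR and fell in MBP3-OE. The extracellular ribonuclease LE-like gene g47272 had 1397 FPKM in DR and 16.1 FPKM in MR, and 306, 252 and 160.4 against 0.559, 7.86 and 13.2 FPKM in MBP3-OE (log2 fold change −4.78, SE 1.01, adjusted p = 0.0368, edgeR). DOWNY MILDEW RESISTANCE 6 (g868), an oxygenase that removes salicylic acid in Arabidopsis, was 144 and 1.34 FPKM in WT and 33.6, 65.0 and 26.3 against 0.0707, 0.691 and 0.977 FPKM in MBP3-OE. The 21 kDa protein-like gene g1601 had 62.2 FPKM in DR, whereas MR held none of its counts, so that it was at least 921-fold lower there against a floor of 3 counts. In MBP3-OE g1601 fell from 0.872, 32.4 and 29.8 FPKM to 0.176, 0.217 and 0.352 FPKM. In all, 259 members had no count in MR and more than 3 in DR, and 155 the reverse.

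Of the 22 genes with opposite calls, 13 were higher in MR and fell in MBP3-OE. The largest of those at 10 FPKM or more was the terpene synthase g51010, with 287 FPKM in DR and 689.6 FPKM in MR, but 409, 756 and 357 against 73.4, 168 and 140.0 FPKM in MBP3-OE (log2 fold change −1.69, SE 0.38, adjusted p = 0.0412, edgeR). Polyphenol oxidase I (g43432), which browns cut tissue, was 364 and 766 FPKM in WT and 679.9, 631 and 439.9 against 34.9, 124 and 71.2 FPKM in MBP3-OE. For both, the younger libraries of MBP3-OE were nearer to MR than the older ones. The same held for g61385, an organic cation/carnitine transporter 3-like gene, with 22.4 and 52.3 FPKM in WT and 59.4, 48.5 and 40.1 against 10.8, 12.5 and 20.4 FPKM in MBP3-OE.

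The other 9 were lower in MR and rose in MBP3-OE, and among the 5 largest are genes of light and the clock. The clock gene g871 (APRR5) had 24.9 FPKM in DR and 6.80 FPKM in MR, and 32.7, 34.7 and 30.6 against 96.8, 75.2 and 45.8 FPKM in MBP3-OE (log2 fold change 1.5, SE 0.33, adjusted p = 0.0394, edgeR). The kinase STN7 (g36554), which balances the photosystems in leaves, was 21.7 and 6.43 FPKM in WT and 10.5, 26 and 17.8 against 59.7, 42.3 and 70.3 FPKM in MBP3-OE. The photorespiratory serine--glyoxylate aminotransferase g50936 was 10.8 and 3.95 FPKM in WT and 16.2, 4.05 and 3.12 against 68.2, 48.6 and 59.8 FPKM in MBP3-OE.

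Members higher and lower in MR were spread over the genome. By linkage group the share higher in MR ran from 8.09% on LG 4 to 12% on LG 11, which holds the sporamin genes, and the share lower from 15.4% on LG 3 to 20.6% on LG 14. The median gene span was 3010 bases for higher, 2605 for lower and 3570 for the other members. Of the members lower in MR 20.9% had no informative description, against 29.5% of those higher and 28.2% of all. MR was the highest of the 3 WT libraries for 95.9% of the members higher than in DR and the lowest for 96.1% of those lower, against 35.9% and 45.9% of all members, one of the 2 relations being fixed by the choice. At the edge of the member rule, g38508, with 0.633 FPKM in DR and 0.367 in MR, was just inside, and g57692, with 0.971 and 0.0285 FPKM, was just outside.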

How the data were processed

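Root RNA of 2 WT and 6 MBP3-OE libraries was compared, and the 4 libraries of 20 days entered the test of the difference. Reads were cleaned with cutadapt 1.9, mapped to a sweetpotato genome with no build named (HISAT2 2.0.4) and quantified by the authors with StringTie 1.3.4d. The deposited FPKM values are the authors' own. How the authors made the deposited counts, which are whole numbers, is not given in the sources used here. WT folds are ratios of FPKM + 1. The MBP3-OE test was edgeR's quasi-likelihood test on counts with TMM scaling and Benjamini-Hochberg adjustment, for genes averaging 0.5 FPKM or more across all 12 libraries. The difference of age effects was fitted on 6 cell means. Checked on simulated counts with 200 of 28065 genes changed, the MBP3-OE test recovered 0%, 11.5% and 58.6% of genes changed by log2 folds of 1, 2 and 3, with 4 false calls. With 1988, 2053 and 1959 genes changed by those sizes it recovered 18.5%, 74.1% and 90%, with 127 false calls. The test of the difference recovered 0% at each size.

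Members and the 45 lists, made by words in the deposited descriptions, were chosen with earlier results of these data known. Named genes were the 12 highest and 12 lowest WT ratios among genes with an informative description and at least 10 FPKM, the 3 most abundant members of each list, the 5 genes with the highest FPKM in DR and in MR, the 5 largest opposite calls each way, genes past the test of the difference, and the MBP3 pair. Genes named beyond these, and the stretches of neighbouring genes, were chosen after their values were seen. Deposited KEGG terms were not used, because they paired some genes with enzymes that their descriptions contradict. Alternatives covered pseudocount, filter, scaling, tool, replicate block and each MBP3-OE library left out. Coordinates are those of the deposited annotation. Software was DESeq2 1.42.0, edgeR 4.0.16 and limma 3.58.1 (R 4.3.3), and Matplotlib 3.10.9, NumPy 2.4.6, pandas 2.3.3 and SciPy 1.17.1 (Python 3.11.15).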

Additional observations from a re-analysis of the deposited data

Results flagged for a closer look

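One gene passed the test of the difference between the age effects of the genotypes. Gene g24844, described as MIZU-KUSSEI 1, a protein needed for root growth towards water in Arabidopsis, lies on LG 6 (29068400 to 29069609). It had 8.70 FPKM in DR (682 counts) and 16.3 FPKM in FR, whereas MR held none of its counts and was thus at least 196-fold lower than DR against a floor of 3 counts. In MBP3-OE it measured 2.53, 3.17 and 3.88 FPKM at 1 month and 2.02, 1.87 and 1.36 FPKM at 4 months, where no change was called (log2 fold change −0.52, SE 0.33, adjusted p = 0.321, edgeR). The fitted difference, WT minus MBP3-OE, was −11.65 on the log2 scale (SE 0.92, adjusted p = 0.0162, edgeR), a size set by the prior count because MR had none. The call rests on a single library without counts. It was lost without library 2 or 3 of 1 month (adjusted p = 0.0547 and 0.0793, edgeR), among the 8 libraries of 1 and 4 months (0.513) and with a replicate block (0.220).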

How the results depend on the processing

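The WT counts of 2669 higher and 4958 lower members became 1650 and 2980 at a mean of at least 5 FPKM and 689 and 1414 past 4-fold, both by construction, and counts scaled by TMM and depth gave 4291 higher. In MBP3-OE, 1296 genes rose and 1298 fell. DESeq2 gave 2118 and 3017, limma on log2(FPKM + 1) 855 and 2960, 6 cell means over 12 libraries 2098 and 2684, and a mean of at least 5 FPKM 812 falls. Leaving out 1 library gave 0 to 1328 rises and 4 to 1561 falls. The 701 members higher in both became 451 at a WT mean of at least 5 FPKM, 240 past 4-fold and 1056 with DESeq2, and the 918 lower in both became 583, 448 and 1884, then 1988 with limma and 1722 with 12 libraries. Without 1 library they were 0 to 706 and 4 to 1067. Same-numbered libraries of the 2 ages deviated together by correlations of 0.0778, 0.0618 and 0.0452, all positive but under 0.1. Those of different numbers ran from −0.107 to 0.0646, the highest for library 8 of 1 month with library 3 of 4 months. These values do not settle whether the numbers pair the libraries, and the main test left them unpaired. With a replicate block 300 genes rose and 334 fell, 228 and 287 with the WT direction, and the difference of age effects called none (edgeR, 2665 at an unadjusted p under 0.05). That test called 665 genes with DESeq2, none among 8 libraries (1959 unadjusted), and 0 to 2 with a library left out. Of 59 named genes called in MBP3-OE, 58 kept the call with DESeq2, 52 with limma and 14 with the block. Without library 8 of 4 months none kept it, and without library 8 or library 3 of 1 month 3 and 5 did. Leaving out another library kept 20 to 42 of them. No result turned its direction while called. The cause of these differences was not tested. One WT library per stage leaves the spread between WT roots unknown, and copies of a gene family may share reads.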

Other observations

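Genes described as Gag-Pol, the polyprotein of retrotransposons with long terminal repeats, were lower in MR almost without exception. Of 41 genes on 14 linkage groups, 37 were past 2-fold lower and none higher, with a median log2 fold of −2.67, and in MBP3-OE 25 of 39 fell and none rose (median −4.16). Their sum came to 1031 FPKM in DR and 76.5 FPKM in MR, and 306, 378 and 387 FPKM at 1 month and 20.9, 56.5 and 45.1 FPKM at 4 months in MBP3-OE. For 36 of the 37, all older libraries of MBP3-OE lay below all younger ones. The same held for 68.1% of the tested members lower in MR and for 31.8% of all members tested. The most abundant, g59024, had 175 FPKM in DR and 23.9 FPKM in MR, and g31302 had 107.5 and 6.56 FPKM. The family was noticed in the data and carries no test of its own, and its copies may share reads.

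Genes described as mannose/glucose-specific lectins are carbohydrate-binding proteins known as defence proteins of storage tissue. All 12 were past 2-fold higher in MR, against 9.85% of all members, with a median log2 fold of 4.08. The family was chosen after its values were seen, and its genes passed the 0.5 FPKM minimum largely through MR, which partly set that count. Their sum came to 3.88 FPKM in DR and 237 FPKM in MR. In MBP3-OE it was 9.48, 14.3 and 18.4 FPKM at 1 month and 0.381, 0.558 and 68.9 FPKM at 4 months, and of the 11 tested none rose and 1 fell (edgeR, none up and 2 down at an unadjusted p under 0.05, and DESeq2 called none up and 2 down). As with the phospholipase genes, library 8 of 4 months stood above the younger roots while libraries 2 and 3 stood below them. Sucrose synthases, 10 genes, had 7 lower and none higher in MR, yet their sum came to 338 FPKM in DR and 379 FPKM in MR, and the most abundant, g55074, was within 2-fold (124 and 181 FPKM).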
